A study of Homo sapiens with 4 samples.

Results

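The genes described here are 31 that androgen is known to induce in prostate cells. They were chosen by name, with earlier results of these data known. They range from KLK3 and KLK2 to regulators such as ELL2 and enzymes such as ALDH1A3. Androgen signalling acts in the nucleus through androgen response elements in DNA and raises transcription of such genes with the help of pioneer factors such as FOXA1. In the prostate some of these genes belong to the secretory programme of luminal cells, and KLK3, which encodes prostate-specific antigen, is its best-known readout. Of the 31, 27 were measured through a probe set with a single gene symbol, among 18417 genes measured in that way. TMPRSS2 and FKBP5 were named on probe sets that carry several symbols and were given no value, and ACSL3 and SORD were not analysed here.

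The study used LNCaP, a human prostate cancer line that responds to androgen. LTAD is a line obtained from LNCaP by prolonged growth without androgen. One array was made for each of 4 groups. LNCaP cells were moved from medium with whole serum to medium free of phenol red, whose 2.5% serum had been stripped of steroids with charcoal, for 24 h. LTAD cells were kept in the same kind of medium with 10% stripped serum and were either left untransfected, given a control siRNA (siControl) or given an siRNA against PSF (siPSF), the RNA-binding protein encoded by SFPQ. All 4 groups were thus without added androgen, and LNCaP was the parent line after a short deprivation, not a line under androgen. LNCaP and LTAD differed in serum content as well as in line, and these cannot be told apart here.

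With 1 array in each group there was no replicate spread to test against. Values are therefore printed without errors or p-values, and the small number of arrays sets their precision. Levels are log2 values after quantile normalization, which gives the 4 arrays one common distribution. A difference of 1 on this scale is 2-fold, and a gene is called when 2 arrays were at least 2-fold apart. A gene was kept when 1 or more arrays reached 7.23, the median over all genes and arrays, which left 10117 genes, 24 of the 27 measured androgen-induced genes among them. HPGD, STEAP4 and MAF stayed under 7.23 in every array. No detection call was given, so a level under 7.23 may lie within background, and folds are left out where a difference rests on one. A gene can pass this filter through its brightest array alone, which favours genes that differ. Counts over the 24 are therefore set beside counts over the 27 with no filter. The 2 transfected arrays stood apart from the untransfected ones, with deposited medians of 5.98 (siControl) and 6.04 (siPSF) against 6.91 (LNCaP) and 7.20 (LTAD). Transfection, culture and array handling cannot be told apart in that split, so every comparison with LNCaP is given for both LTAD states. All 5 measured luminal markers (KRT8, KRT18, HOXB13, EPCAM and CDH1) were above 7.23 in all 4 arrays. Of the 3 basal markers, KRT14 reached it with siPSF alone, and no endothelial or immune marker did in any array. Of the 4 measured neuroendocrine markers, CHGA and SYP stayed under 7.23 in every array, at 5.05 to 5.69 and 5.37 to 5.87. ENO2, which many cell types express, read 9.01 in LNCaP, 10.29 in LTAD, 9.67 in siControl and 10.52 in siPSF. INSM1 lay near the filter value, at 6.91, 7.27, 7.28 and 7.33 in the same order. Of the 3 stromal markers COL1A1 was above it in all 4 arrays, at 7.68 to 7.99. The part of these markers in the results was not tested. SFPQ, the siRNA target, read 11.23 with siControl and 9.87 with siPSF.

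KLK3 and KLK2 are neighbouring kallikrein genes on chromosome 19 that arose by duplication, and the data below differ between them, so the 250 bases before each start site are shown, from RefSeq on GRCh38.p14. The capitals mark, in KLK3, the 15 bases that begin with AGAACA, 1 arm of the androgen response element, and in KLK2 the 15 bases most like them. KLK3 lies at chr19:50854665-50854914 and KLK2 at chr19:50873189-50873438, both on the plus strand.
KLK3: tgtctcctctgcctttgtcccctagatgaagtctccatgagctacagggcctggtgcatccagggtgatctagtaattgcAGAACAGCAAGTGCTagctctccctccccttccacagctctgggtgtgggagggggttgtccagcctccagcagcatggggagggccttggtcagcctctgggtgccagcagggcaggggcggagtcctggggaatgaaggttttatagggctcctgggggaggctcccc
KLK2: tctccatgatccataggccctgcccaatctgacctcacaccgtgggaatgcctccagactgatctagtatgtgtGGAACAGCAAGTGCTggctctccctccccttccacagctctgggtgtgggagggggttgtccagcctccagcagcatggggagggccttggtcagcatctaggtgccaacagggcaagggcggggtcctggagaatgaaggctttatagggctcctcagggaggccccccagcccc
The KLK3 element starts 170 bases before the start site and matches 10 of the 12 fixed letters of the palindromic element, which is AGAACA, any 3 bases and then TGTTCT. The KLK2 element starts 176 bases before its own start site and matches 9 of 12. The elements share 14 of 15 letters and differ by A1G, counted from 1 at the 5′ end with the KLK3 letter first. Over 241 aligned bases, with 18 gap positions left out, the 2 promoters were 85.1% identical. Probes for such close paralogs can bind each other's transcripts, which limits how far the array separates KLK2 from KLK3.

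Windows from 250 bases before to 50 after a start site were found for 25 of the 31 genes, 38 windows in all, and searched on both strands. AGAACA occurred in 6 of the 38 (15.8%), against 14.8% of all 35116 windows in the RefSeq table. The whole palindromic element occurred in 0 of the 38 and in 1 of all windows. The 5 genes with AGAACA were KLK3, PMEPA1, STK39, LIFR and FKBP5. A match is a description of the letters and not a site shown to be bound. LIFR, with its match 8 bases before the start site, was below LNCaP in untransfected LTAD. On the normalized values it was above LNCaP in both transfected arrays. PMEPA1 and STK39 were, like KLK3, below LNCaP in every LTAD array. So were ABCC4, HOMER2, ALDH1A3, ELL2, HERC3 and TPD52, which are not among the 5 genes with AGAACA, though windows were not found for every gene. Whether the letters bear on the levels was not tested. For PMEPA1 and STK39 the letters upstream of a start site are shown with 12 bases on each side, the match in capitals (in PMEPA1 it reads AGAACA on the other strand).
PMEPA1: acctgaagaatgTGTTCTtgtagcactcct
STK39: tcgccgaggcggAGAACAgcgcgcgctagg
The PMEPA1 stretch lies at chr20:57710789-57710818 and begins its match 229 bases before that start. The STK39 stretch lies at chr2:168247690-168247719, with the match 112 bases before the start. Both genes are on the minus strand.

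The first question was which androgen-induced genes were lower than in LNCaP in both LTAD states. Of the 24 kept genes, 5 were at least 2-fold lower in untransfected LTAD and in siControl LTAD alike: KLK3, ABCC4, PMEPA1, HOMER2 and ALDH1A3. Another 2, CENPN and TPD52, were at least 2-fold lower in untransfected LTAD, and 3, ELL2, STK39 and HERC3, in siControl LTAD. The other 14 were under 2-fold in both states. No kept gene of the 24 was at least 2-fold higher than in LNCaP in either state. The plot of levels by array shows how far each gene spread.

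**Figure D1:**
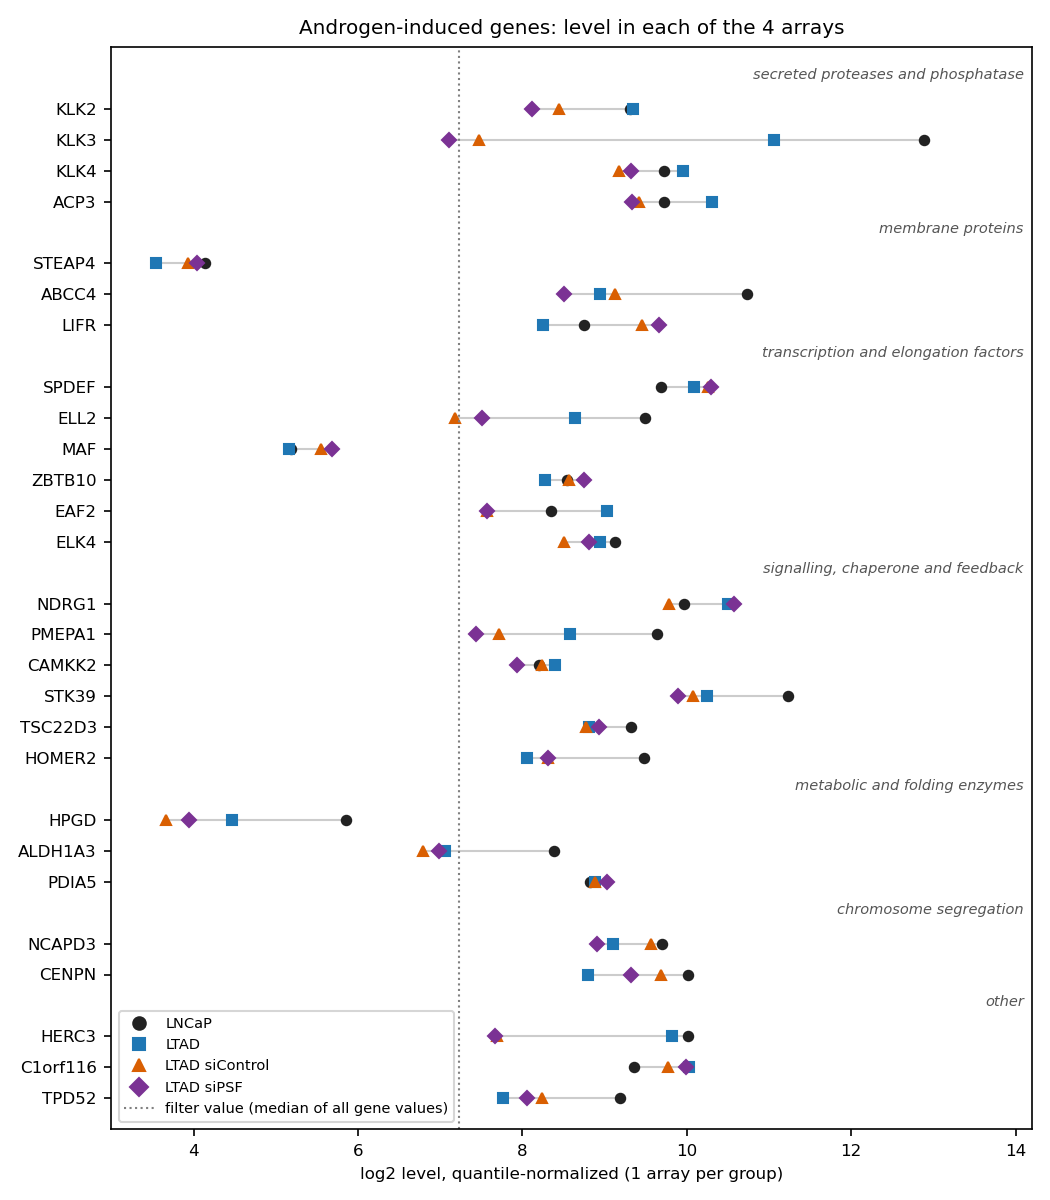
The log2 level (x axis, quantile-normalized) of the 27 measured androgen-induced genes in the LNCaP, LTAD, siControl and siPSF arrays, 1 each, grouped by role. The dotted line is the filter value of 7.23. KLK3 has the widest spread, from 12.89 in LNCaP to 7.11 with siPSF.

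The counts are read against all kept genes. The genes were chosen with earlier results of these data known, so these shares describe the list and are no independent test. In untransfected LTAD 7 of 24 (29.2%) were at least 2-fold lower than in LNCaP, against 3.43% of the 10117 kept genes. In siControl LTAD it was 8 of 24 (33.3%) against 2.95%. The 5 of 24 in both states stood against 0.83% of kept genes. At least 2-fold higher were 0 of 24 in each state, against 2.2% of kept genes in untransfected LTAD and 2.69% in siControl LTAD. With no filter 8 of 27 measured genes were lower in untransfected LTAD and 9 of 27 in siControl LTAD, against 2.55% and 2.35% of all 18417 genes. In both states it was then 6 of 27, against 0.717%, with HPGD as the added gene. The median difference of the 24 was -0.38 in untransfected LTAD and -0.59 in siControl LTAD, beside medians over all kept genes of 0.00 and 0.06. Both differences use the same LNCaP array, so the second state is not an independent repeat of the first.

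Bulk RNA was measured, so fewer cells expressing a gene and less of its RNA per cell cannot be told apart. By sign, 15 of the 27 measured genes were below LNCaP in both states, 4 above in both, 5 above in untransfected LTAD and below in siControl LTAD, and 3 the reverse. In untransfected LTAD 66.7% of the 27 were below LNCaP, against 48.2% of all 18417 genes, and in siControl LTAD 74.1%, against 42.1%. The share of all genes below in both states was not computed, and both states were read against the same LNCaP array. The 4 above in both were SPDEF, CAMKK2, PDIA5 and C1orf116. On the deposited values all 4 turned below LNCaP in siControl LTAD, with all kept genes shifted too, to a median of -0.69. There 16 of 24 genes were at least 2-fold lower than LNCaP in siControl LTAD, where 22.9% of kept genes were. KLK3, ABCC4, ALDH1A3, HOMER2, TPD52 and CENPN, 6 of 24, were lower in both states there, against 1.44% of kept genes. From the normalized to the deposited values the siControl difference from LNCaP moved by between -0.996 and -0.63 in each of the 27 genes, so folds by which siControl was below LNCaP are larger on the deposited scale. Over 6 ways of scaling the arrays, 3 of the 27 genes changed sign in untransfected LTAD and 9 in siControl LTAD, none of them at least 2-fold lower than LNCaP in either state. At the edges of the threshold, PMEPA1 was just inside in untransfected LTAD at -1.06 and STK39 just outside at -0.98. In siControl LTAD STK39 was just inside at -1.15 and TPD52 just outside at -0.95. The sorting of STK39 and TPD52 into 1 state thus turned on small distances from the threshold.

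**Figure D2:**
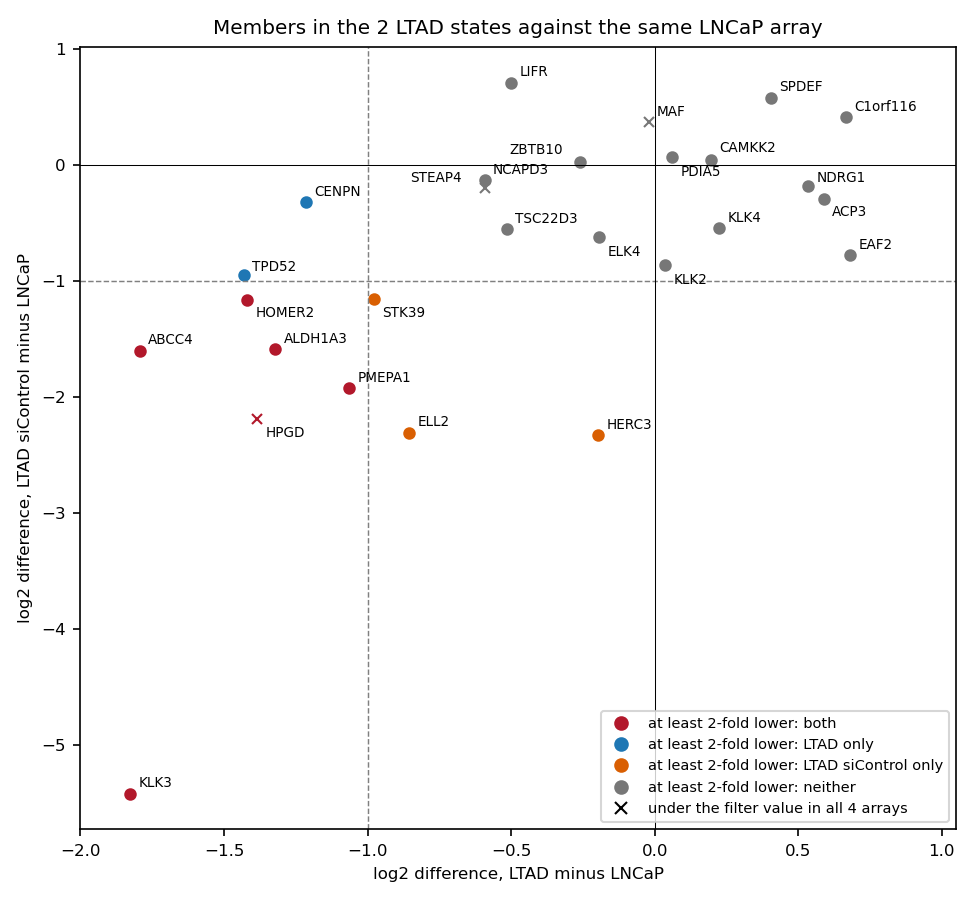
Log2 difference from LNCaP in untransfected LTAD (x axis) and in siControl LTAD (y axis) for the 27 measured genes, both against the same LNCaP array. Dashed lines mark 2-fold lower, and crosses mark the 3 genes under 7.23 in every array. KLK3 lies at -1.83 and -5.42, and 5 kept genes plus HPGD lie in the lower left field.

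Among the secreted proteins, KLK3 separated from its relatives. KLK3 encodes prostate-specific antigen, a serine protease of seminal fluid, and read 12.89 in LNCaP, 11.06 in LTAD, 7.47 in siControl and 7.11 in siPSF. It was 3.55-fold lower in untransfected LTAD and 42.8-fold lower in siControl LTAD than in LNCaP. Over the 6 ways of scaling, the siControl fold ran from 36.8 to 70.1, and on the deposited values, which gave the highest, its siControl level of 6.98 was under the median of that scale, 7.24. Among the 10117 kept genes it ranked 85 from the lowest difference in untransfected LTAD, 4 in siControl LTAD and 1 in siPSF LTAD. The 2 LTAD arrays without the siRNA against PSF were themselves 12.1-fold apart for this gene, more than untransfected LTAD and LNCaP.

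KLK2, a protease that can activate the KLK3 product, read 9.31 in LNCaP, 9.35 in LTAD, 8.45 in siControl and 8.11 in siPSF. Untransfected LTAD and LNCaP were nearly level, with a difference of 0.04 that turned to -0.09 when array medians were subtracted, and the transfected arrays were lower. Its difference from LNCaP reached 2-fold with siPSF, at 2.29-fold, and stayed under it with siControl, at 1.82-fold. KLK4, another kallikrein protease, read 9.73, 9.95, 9.18 and 9.33 in the same order of arrays. ACP3, the prostatic acid phosphatase (formerly ACPP), read 9.72, 10.31, 9.42 and 9.33. KLK4 and ACP3 were both highest in untransfected LTAD, and no pair of their arrays compared here was 2-fold apart on the normalized values. On the deposited values siControl against untransfected LTAD was -1.65 for KLK4 and -1.74 for ACP3. There 39.6% of kept genes were at least 2-fold lower. The capital-letter elements of KLK3 and KLK2 shown above differ by 1 letter, and whether that letter bears on the levels was not tested.

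Of the membrane proteins, ABCC4 was lower in every LTAD array. ABCC4, an exporter of organic anions such as cyclic nucleotides and prostaglandins, read 10.73 in LNCaP, 8.94 in LTAD, 9.13 in siControl and 8.51 in siPSF. The 3 LTAD arrays lay close together and all below LNCaP, by 3.47-fold, 3.03-fold and 4.66-fold. LIFR, the receptor for leukemia inhibitory factor, read 8.75 in LNCaP, 8.25 in LTAD, 9.45 in siControl and 9.66 in siPSF. It was the gene of the 24 that was at least 2-fold higher in siControl than in untransfected LTAD, at 2.31-fold, and on the deposited values this difference was 0.28. STEAP4, a metalloreductase, read between 3.55 and 4.14 in the 4 arrays, all under the filter value.

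Of the transcription and elongation factors, ELL2 had the lowest difference from LNCaP in siControl LTAD. ELL2, a factor that helps RNA polymerase II elongate, read 9.49 in LNCaP, 8.64 in LTAD, 7.18 in siControl and 7.51 in siPSF. Levels were ordered LNCaP, untransfected LTAD and then the 2 transfected arrays, with -0.86 in untransfected LTAD and -2.31 in siControl LTAD. A second ELL2 probe set read 9.25, 8.72, 7.48 and 7.30, with the same calls at 2-fold, although siPSF against siControl was -0.19 there and 0.33 in the first. The reference lists 4 pseudogenes named after ELL2, 2 after CENPN and 2 after HOMER2, whose copies could share probes, so these 3 genes are uncertain to that extent. The ELL2 probe set described first, the brighter one, may itself read such a copy. Which of the 2 probe sets reads ELL2 was not settled here.

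EAF2, an ELL-associated factor that binds ELL2, read 8.35 in LNCaP, 9.03 in LTAD, 7.57 in siControl and 7.57 in siPSF. It was higher than LNCaP by 0.68 in untransfected LTAD, the highest difference of the 24 there, and its siControl level was 0.78 under LNCaP. SPDEF, an ETS factor of secretory epithelium, was lowest in LNCaP at 9.68 and read 10.09, 10.26 and 10.29 in the LTAD arrays. ELK4, another ETS factor, read 9.13 in LNCaP and from 8.51 to 8.94 in LTAD cells. ZBTB10, a zinc finger repressor, stayed between 8.28 and 8.75. MAF, a leucine zipper factor, stayed under 7.23 everywhere, from 5.16 to 5.69.

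Among signalling and feedback genes, PMEPA1, STK39 and HOMER2 were lower in all LTAD arrays. PMEPA1, a membrane protein that dampens TGF-beta signalling, read 9.64 in LNCaP, 8.58 in LTAD, 7.71 in siControl and 7.44 in siPSF. It was 2.09-fold lower in untransfected LTAD, or -0.87 on the deposited values and so under 2-fold there, and 3.80-fold lower in siControl LTAD. HOMER2, a scaffold protein of calcium signalling, read 9.48, 8.06, 8.32 and 8.31 in the order LNCaP, LTAD, siControl and siPSF. The 3 LTAD arrays were close together, 2.68-fold, 2.24-fold and 2.26-fold below LNCaP. STK39, a kinase that regulates ion cotransporters, read 11.23, 10.25, 10.08 and 9.90, with the LTAD arrays again grouped below LNCaP at 1.97-fold, 2.22-fold and 2.52-fold. With array medians subtracted, the siControl differences of STK39 and HOMER2 were -0.85 and -0.995, both short of 2-fold.

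TSC22D3, the glucocorticoid-induced leucine zipper gene GILZ, read 9.32 in LNCaP and from 8.77 to 8.94 in LTAD cells. CAMKK2, a calcium-dependent kinase upstream of AMPK, read 8.20, 8.40, 8.24 and 7.94 in the order above. NDRG1, a stress and differentiation gene, read 9.96, 10.50, 9.78 and 10.57, so that untransfected and siPSF LTAD were high and LNCaP and siControl LTAD low. None of these 3 genes reached 2-fold in any comparison made here on the normalized values. On the deposited values, where most genes shifted down with siControl, all 3 did. NDRG1 was at -1.55 and CAMKK2 at -1.11 in siControl against untransfected LTAD, and TSC22D3 at -1.30 in siControl LTAD against LNCaP. NR3C1, the glucocorticoid receptor, which can also act on TSC22D3, read between 4.19 and 4.37 in the 4 arrays, and PGR, the progesterone receptor, between 3.97 and 4.64, so both stayed under the filter value.

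Of the enzymes, ALDH1A3 and HPGD were lower in LTAD cells. ALDH1A3, which makes retinoic acid, read 8.39 in LNCaP, 7.07 in LTAD, 6.80 in siControl and 6.98 in siPSF. It passed the filter through LNCaP alone, with differences of -1.32 and -1.59 in untransfected and siControl LTAD. Its second probe set, built on a single transcript record, was flat between 6.18 and 6.24, and the mean of both probe sets gave -0.67 and -0.77, under 2-fold. HPGD, which inactivates prostaglandins, read 5.85, 4.47, 3.67 and 3.95 in the order LNCaP, LTAD, siControl and siPSF, below 7.23 throughout. PDIA5, a disulfide isomerase of the endoplasmic reticulum, was nearly level, from 8.83 to 9.02.

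Of the chromosome segregation genes, CENPN was lowest in untransfected LTAD and NCAPD3 in siPSF LTAD. CENPN, a centromere protein, read 10.02 in LNCaP, 8.80 in LTAD, 9.69 in siControl and 9.32 in siPSF. NCAPD3, a condensin II subunit, read 9.69, 9.10, 9.56 and 8.91. CENPN was 2.32-fold lower in untransfected LTAD and 1.25-fold lower in siControl LTAD than in LNCaP. Of 10 mitosis genes such as MKI67 and PLK1, 9 were at least 2-fold lower in untransfected LTAD than in LNCaP (median -1.16), against 3.43% of kept genes, and 0 in siControl LTAD (median 0.22), against 2.95%. Their part in the CENPN difference was not tested.

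HERC3, a HECT-type ubiquitin ligase, stood apart among the remaining genes. It read 10.02 in LNCaP, 9.82 in LTAD, 7.69 in siControl and 7.67 in siPSF. The untransfected arrays were close together and the transfected ones 5.03-fold and 5.10-fold below LNCaP. TPD52, a protein of vesicle traffic that is often overexpressed in prostate cancer, read 9.19, 7.76, 8.24 and 8.06, with all LTAD arrays lower. It was 2.70-fold lower in untransfected LTAD, 1.93-fold in siControl and 2.19-fold in siPSF. C1orf116, which encodes the specifically androgen-regulated gene protein SARG, was lowest in LNCaP at 9.36 and read 10.03, 9.77 and 9.99 in LTAD cells.

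The siControl and untransfected LTAD arrays show how far apart 2 arrays of one line lay without an siRNA against PSF. KLK3, HERC3, EAF2 and ELL2 were at least 2-fold lower in siControl, 4 of 24 against 4.36% of kept genes, and LIFR was higher, 1 of 24 against 6.34%. With no filter it was 4 of 27 against 3.15% and 1 of 27 against 4.69%. On the deposited values these counts were 14 lower and 0 higher of 24, against 39.6% and 0.682% of kept genes, and with array medians subtracted 4 lower and 2 higher, against 2.89% and 12.2%. HERC3 was 4.39-fold lower and EAF2 2.75-fold lower. For ABCC4, HOMER2, ALDH1A3, STK39 and TPD52 the 2 arrays differed by 0.19, 0.25, -0.27, -0.17 and 0.48. For PMEPA1 the difference was 1.82-fold. On the deposited values PMEPA1, at -1.84, ALDH1A3, at -1.41, and STK39, narrowly at -1.004, passed 2-fold between the LTAD arrays. The ALDH1A3 levels of both LTAD arrays were under 7.23.

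The androgen-induced genes were then compared between siPSF and siControl LTAD. None was called: 0 of 24 were at least 2-fold lower, against 0.722% of kept genes, and 0 of 24 at least 2-fold higher, against 0.089%. With no filter these were 0 of 27 against 0.494% and 0 of 27 against 0.0923%. So few genes were called at all that 0 of 24 cannot show whether these genes depended on PSF. Differences ran from -0.65 for NCAPD3 to 0.79 for NDRG1, with 13 of 24 below 0 and a median of 0.00. ABCC4 differed by -0.62 (1.54-fold lower with siPSF), KLK3 by -0.36 and KLK2 by -0.33. NDRG1 was 1.73-fold higher with siPSF, and its siPSF level of 10.57 was close to 10.50 in untransfected LTAD. Single arrays do not show whether differences under 2-fold exceed the spread between samples.

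**Figure D3:**
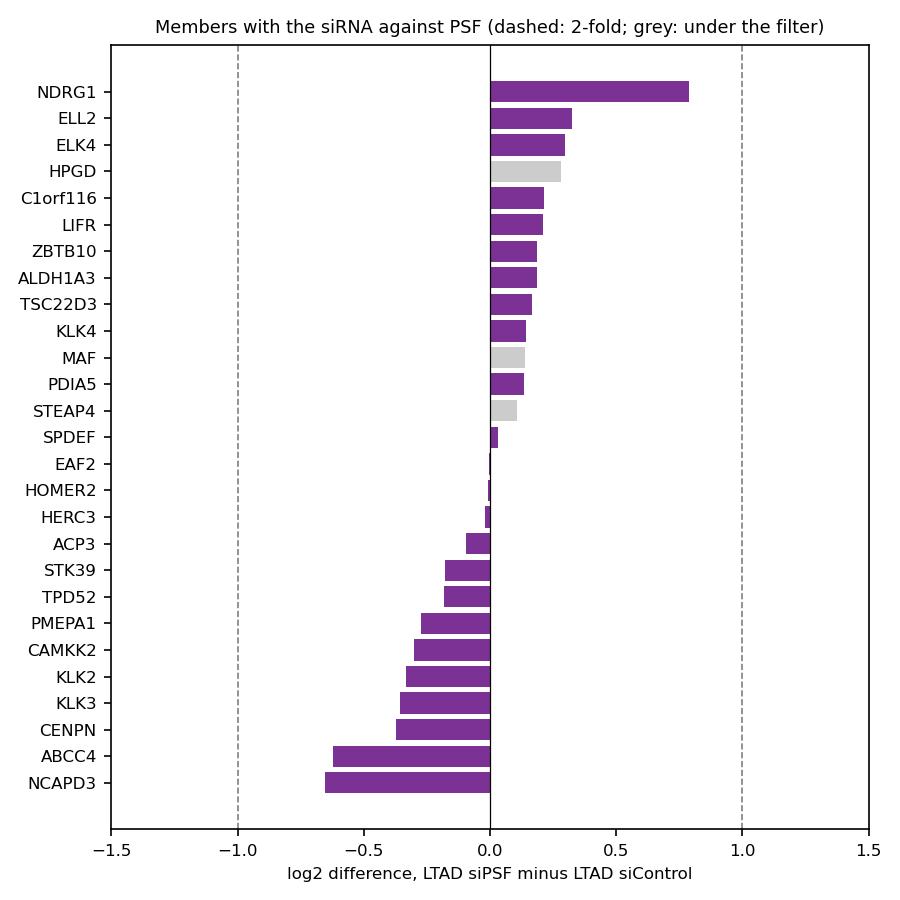
Log2 difference between siPSF and siControl LTAD (x axis) for the 27 measured genes, in order. Bars lie between -0.65 (NCAPD3) and 0.79 (NDRG1), inside the dashed lines at 2-fold, and grey bars are the 3 genes under 7.23 in every array.

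Against LNCaP, 10 of 24 genes were at least 2-fold lower in siPSF LTAD, where 4.18% of kept genes were, and with no filter 11 of 27, against 3.26%. The 5 genes lower in both other LTAD states, KLK3, ABCC4, PMEPA1, HOMER2 and ALDH1A3, were all among them. KLK3 differed by -5.77, HERC3 by -2.35, ABCC4 by -2.22, PMEPA1 by -2.20, ELL2 by -1.98, ALDH1A3 by -1.40, STK39 by -1.33, KLK2 by -1.20, HOMER2 by -1.17 and TPD52 by -1.13. KLK2 and TPD52 were under 2-fold with siControl, at -0.86 and -0.95, and passed the threshold here by small margins.

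Other androgen response genes were read from a list of 75, of which 70 were measured and 61 kept. In untransfected LTAD 3 of the 61 (4.92%) were at least 2-fold lower than LNCaP, against 3.43% of kept genes, and 1 (1.64%) higher, against 2.2%, with a median of 0.00. In siControl LTAD 9 (14.8%) were lower, against 2.95%, and 3 (4.92%) higher, against 2.69%, with a median of -0.20. ABHD2, a lipid hydrolase gene, and RPS6KA3, a ribosomal S6 kinase gene, were lower in both states, 2 of 61 (3.28%) against 0.83%. ABHD2 read 11.47 in LNCaP, 10.33 in LTAD and 9.97 in siControl, and RPS6KA3 read 9.97, 7.89 and 7.84. UAP1, an enzyme that makes UDP-N-acetylglucosamine, was lower in untransfected LTAD at -1.47 and had -0.91 in siControl.

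Several genes of this list had the pattern of HERC3, with untransfected LTAD near LNCaP and siControl low. ADAMTS1, a secreted metalloprotease, read 11.34 in LNCaP, 11.19 in LTAD and 5.82 in siControl. AZGP1, a secreted glycoprotein of prostate fluid, read 9.97, 10.15 and 6.87, and INPP4B, a phosphoinositide phosphatase, 7.42, 7.43 and 4.54. All 3 were under the filter value of 7.23 in siControl. Higher in siControl LTAD than in LNCaP were SCD by 1.95, INSIG1 by 1.45 and HMGCS1 by 1.11, which are also sterol-regulated genes of lipid synthesis. In untransfected LTAD PTPN21, a tyrosine phosphatase, was higher by 2.47 and passed the filter through that array alone. With siPSF against siControl 0 of the 61 were 2-fold lower, against 0.722% of kept genes, and 0 higher, against 0.089%. Of 13 androgen-repressed genes 11 were measured and 6 kept. With no filter 2 of the 11 were at least 2-fold lower than LNCaP in untransfected LTAD, against 2.55% of all 18417 genes. At least 2-fold higher there were 3, against 311 of the 18417. In siControl LTAD 4 were lower, against 2.35%, and 2 higher, against 404 of the 18417. Levels under 7.23 enter these counts, so they give no direction for the list. TMEFF2 was kept through LNCaP alone, at 8.77, and NTS through siControl alone, at 7.31. DDC and UGT2B17, lower in siControl, were under 7.23 there, at 6.82 and 6.36. Of the 6 kept, LIN7A alone was above 7.23 in all 4 arrays. It read 8.34 in LNCaP, 9.41 in LTAD, 10.98 in siControl and 10.87 in siPSF. That was 2.09-fold higher than LNCaP in untransfected LTAD and 6.22-fold higher in siControl LTAD. Of 10 kept reference genes such as ACTB and GAPDH, 0 were 2-fold apart in any of the 5 comparisons on the normalized values.

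**Figure D4:**
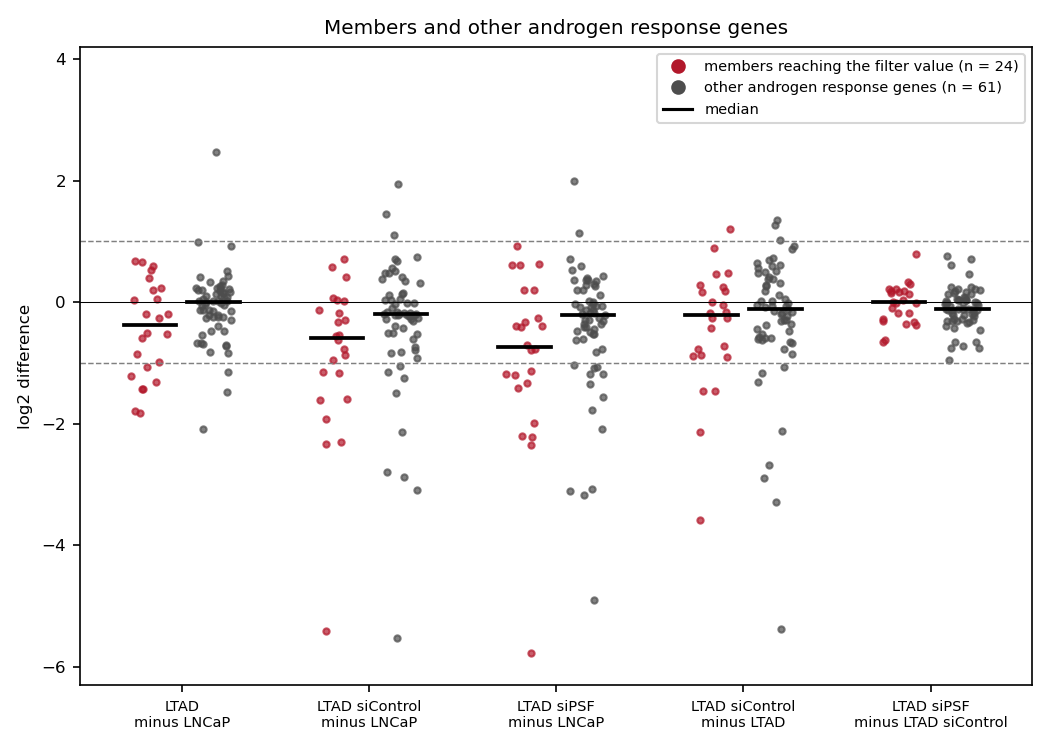
Log2 differences (y axis) in the 5 comparisons (x axis) for the 24 kept androgen-induced genes (red) and 61 other androgen response genes (grey), 1 point a gene, horizontal jitter only, with medians as black bars and dashed lines at 2-fold. Medians of the 24 lie at -0.38 and -0.59 in LTAD and siControl LTAD against LNCaP, and those of the 61 at 0.00 and -0.20.

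The pioneer factors FOXA1, HOXB13 and GATA2 and the coactivator NCOA2 were above 7.23 in all 4 arrays. FOXA1, a forkhead factor that opens chromatin, read 11.64 in LNCaP, 11.83 in LTAD, 11.57 in siControl and 11.55 in siPSF. HOXB13, a prostate homeobox factor, read from 10.70 to 10.93. GATA2 read 10.68, 11.30, 10.45 and 10.48, and NCOA2, a coactivator of steroid receptors, 9.70, 10.44, 9.58 and 9.71, both highest in untransfected LTAD. None of these 4 was 2-fold apart in any comparison on the normalized values. KLF4, also measured, stayed under 7.23 in every array.

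**Figure D5:**
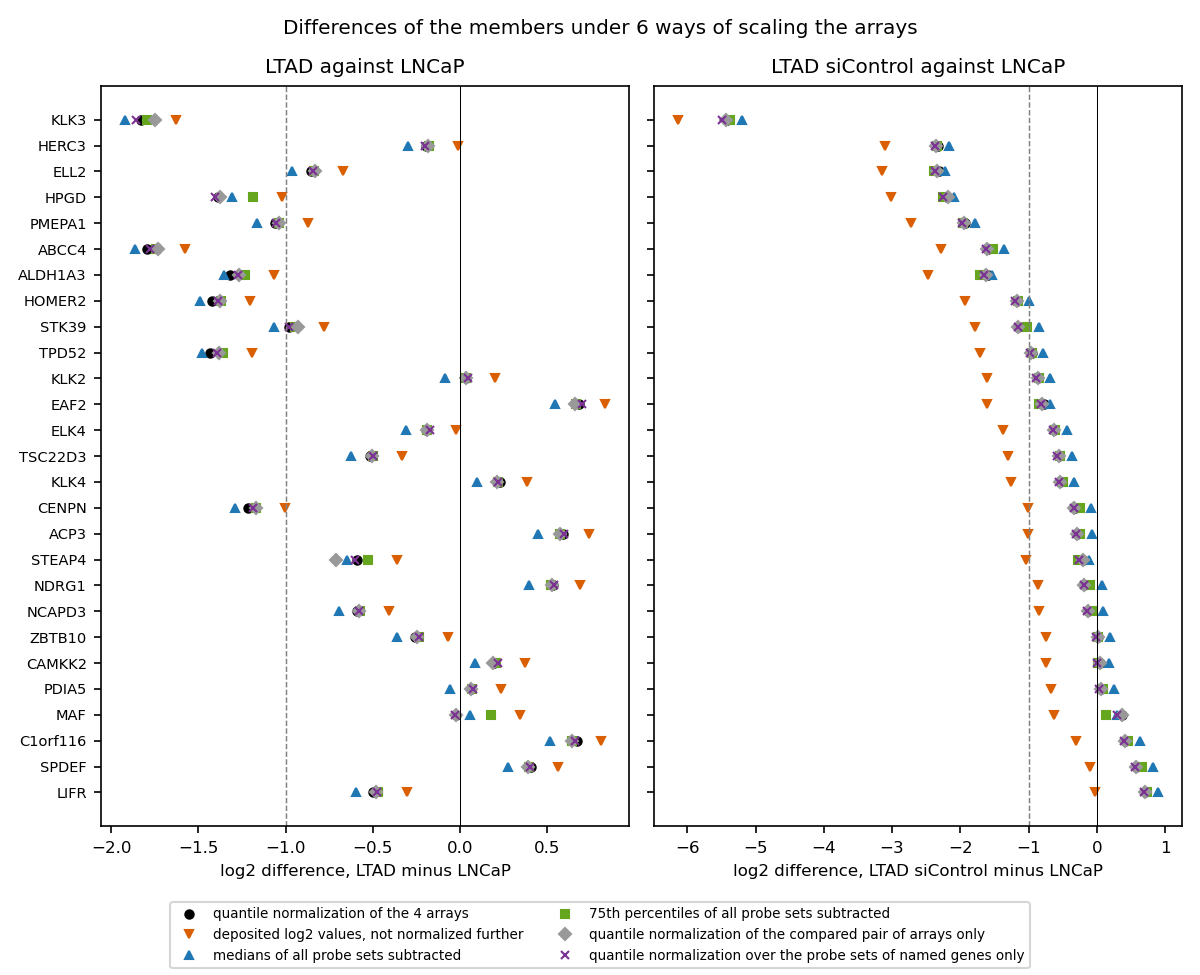
Log2 differences (x axes) of the 27 measured genes (y axis) from LNCaP in untransfected LTAD (left) and siControl LTAD (right) under 6 ways of scaling the arrays, with dashed lines at 2-fold lower. Deposited values (orange) move all genes of the right panel down together, where the median of all kept genes is -0.69, and KLK3 stays lowest in both panels.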

How the data were processed

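Labelled total RNA was hybridised to whole-transcript arrays, 1 for each of 4 groups. The deposited log2 levels of 33297 probe sets were made by the authors with RMA, for which the submitters' processing notes name Affymetrix Expression Console. Its version and settings, detection calls and which arrays shared a normalization are not given in the sources used here. Quantile normalization over all probe sets was applied here (Python 3.11.15, numpy 2.4.6, pandas 2.3.3), because deposited column medians differed. It removes any true shift common to most genes.

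Probe sets with 1 symbol (19460) were named from the platform annotation and updated through Entrez IDs (19429 matched) to RefSeq symbols. The 1754 probe sets with several symbols gave no gene a value, and 12083 were unnamed here. The probe set with the highest mean over the 4 arrays stood for a gene. The computation was tested on simulated data. All 31 genes were to be named, with values in every array for those called, and up to 3 called genes in each direction from the other androgen response list. Genes and lists were chosen with earlier results of these data known. Promoter windows came from RefSeq GRCh38.p14 and were aligned with Biopython 1.88. Alternatives covered scaling, filters, probe set choice and a 1.5-fold threshold.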

Additional observations from a re-analysis of the deposited data

How the results depend on the processing

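Of 163 recomputed counts and medians, 140 stayed within 1.5 times the value reported, with the same sign. The filters on the mean over the 4 arrays and on the deposited scale kept the same 24 genes. Their results, included in the 140, therefore could not differ from those reported. KLK3 and ABCC4 were lower in both LTAD states in every setting run, and PMEPA1 in every one but the deposited values. On the deposited values, genes lower numbered 16 in siControl and 18 in siPSF LTAD against LNCaP and 14 in siControl against untransfected LTAD, with 0 higher there, where 22.9%, 28.0%, 39.6% and 0.682% of all kept genes were, and medians were -0.19 (untransfected LTAD), -1.33 (siControl) and -1.48 (siPSF) against LNCaP, -1.11 for siControl against untransfected LTAD and -0.01 (-0.0078) for siPSF against siControl. The shift common to most genes moves these values. With medians subtracted, siControl against untransfected LTAD had 2 higher genes and a median of 0.11, turned from -0.22. The siPSF against siControl median, -0.0046, was -0.0676 with medians subtracted and -0.0070 with the 75th percentile filter. It turned to 0.0245 with 75th percentiles subtracted, 0.0249 with normalization over named genes and 0.0298 with no filter. At 1.5-fold, 8 genes were lower in both states (2.19% of all kept genes), 3 and 1 were higher than LNCaP in untransfected and siControl LTAD (6.63% and 10.3%), 9 were lower and 2 higher in siControl against untransfected LTAD (11.7% and 16.7%), and 2 lower and 1 higher with siPSF against siControl (3.26% and 0.771%). Of 180 recomputed differences of single called genes, 173 stayed at 2-fold, 7 came under it and 0 changed sign. Averaging the probe sets of a gene, part of that tally, could change ELL2 and ALDH1A3 alone. The other ELL2 and ALDH1A3 probe sets, chosen after seeing the data, gave 5 and 4 genes lower in both states. No paired analysis was possible because each group held 1 array. The number of arrays, and levels under 7.23 in the dimmer array, limit precision.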

Other observations

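TMPRSS2, a transmembrane protease gene that is fused to ETS genes in many prostate cancers, and FKBP5, a co-chaperone of steroid receptors, are annotated on 2 probe sets that carry several symbols, so the values below name no gene. The probe set with 3 symbols (TMPRSS2, LOC285847 and FKBP5) read 10.48 in LNCaP, 7.72 in untransfected LTAD, 6.53 in siControl LTAD and 7.32 in siPSF LTAD. Both of its 2 RefSeq transcripts that matched the gene table belong to TMPRSS2. Its differences from LNCaP were -2.76, -3.94 and -3.15, with the siControl level under 7.23. The probe set with 2 symbols (FKBP5 and LOC285847) read 9.47, 8.42, 8.67 and 8.62 in the same order, and all 4 of its matched RefSeq transcripts belong to FKBP5. Its differences from LNCaP were -1.05, -0.80 and -0.86. The LTAD arrays were below LNCaP in both probe sets.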
